A study of Drosophila melanogaster with 6 samples.

Results

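The control libraries of the series profile the wing imaginal disc of *Drosophila melanogaster* at the end of larval life, without knockdown of the gene under study. They are the 3 libraries of white RNAi + P35 discs, chosen by their label alone out of 6 libraries in all, and they are described here on their own with no contrast to the other condition. Each library is poly(A)-selected RNA from a pool of 40 whole wing discs of wandering larvae of the third instar, put together from lots that were homogenized and frozen before pooling. The larvae were heterozygous for 5 transgenes: UAS-P35 on its own, ap-Gal4 together with UAS-GFP on another chromosome, and tub-Gal80TS opposite the hairpin line UAS-white RNAi JF01540. ap-Gal4 is active in the dorsal compartment only, so the hairpin, GFP and P35, a baculoviral caspase inhibitor that blocks apoptosis, were made in part of a disc that was sequenced whole. The temperature-sensitive Gal80 kept Gal4 off for 4 days at 18°C, and a shift to 28°C released it for the 72 h before dissection. *white* encodes an eye pigment transporter, and its RNAi is the usual negative control in such crosses. Larvae had been grown at 70 per vial from newly hatched animals, and no source says whether the 3 pools came from separate crosses or days, so the spread between them may be partly technical. The sex of the larvae was not stated.

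The wing disc is a folded epithelial sac that forms the adult wing blade, the hinge and the dorsal thorax, or notum. Its cells are assigned positions by compartment selector genes and by secreted signals, chiefly Hedgehog, Decapentaplegic (Dpp), Wingless and Notch ligands. Late in the third instar, pulses of the steroid ecdysone act through the receptor pair EcR and Usp to switch on a cascade of transcription factors and then effector genes, which end larval growth and prepare the disc to evert.

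Levels are given as CPM, the counts of a gene per 1000000 counts of its library, and sets of 3 values are always in the order replicate 1, replicate 2 and replicate 3. Where levels of different genes are set side by side, the mean CPM was divided by the exon length in kilobases. The libraries held 93428696, 97629770 and 110330112 gene-assigned counts, so that a count of 3 corresponds to 0.0321, 0.0307 and 0.0272 CPM, which covers counting error only. Of 17559 genes, 7810 (44.5%) reached 1 CPM in all 3 libraries, among them 7558 of 13801 protein-coding genes (54.8%), while 3763 genes had no count in any library. The median CV of the detected genes was 5.14% across the 3 libraries and the 90th percentile was 16.0%. Among 6939 genes that reached 5 CPM in a library, the highest library was at least 2-fold the lowest for 151 (2.18%), and the counts of genes that differ between replicates are taken over these 6939 genes.

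*w* itself, at chrX:2790599-2796466 of the Ensembl BDGP6 annotation, was read at 494, 569 and 551 CPM (538 ± 39.3, SD, n = 3). The 3 libraries were close to each other, with the lowest value in replicate 1. Counting by gene does not separate transcripts of the resident gene from copies of *w* sequence in the hairpin or in transgenes, so this value does not measure the efficiency of the hairpin.

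The most abundant RNAs belonged to mitochondria, translation, the cytoskeleton and chaperones, with one ecdysone-induced gene among them. Per kilobase, mt:lrRNA, the large mitochondrial ribosomal RNA, stood first at 19533 ± 792 CPM per kb (SD, n = 3). RpL41, the smallest ribosomal protein, followed at 8224 CPM per kb and eEF1alpha1, which delivers aminoacyl-tRNA to the ribosome, at 5555 CPM per kb. Genes with ribosomal protein symbols (RpL or RpS) made up 10 of the 20 highest genes and 68 of the 100 highest per kilobase, and with *sta*, which encodes ribosomal protein SA, they were 11 of the 20. As a group they took 11.4%, 10.8% and 10.8% of all counts, and their 83 members at 5 CPM or more had a median of 1479.5 CPM per kb. The mitochondrial genome took 3.68%, 3.60% and 3.91% of counts, with mt:CoIII at 3905 and mt:CoI at 2998 CPM per kb, both subunits of cytochrome c oxidase.

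Outside these groups, the small heat shock protein gene Hsp23 was read at 2736 CPM per kb, the alpha-tubulin gene alphaTub84B at 2683, the actin gene Act5C at 2286 and the beta-tubulin gene betaTub56D at 2091 CPM per kb. ImpE2, at chr3L:3510974-3512681 and first known as an ecdysone-inducible gene of imaginal discs, was the fifth gene per kilobase with 3135 ± 776 CPM per kb (SD, n = 3). It was also the least even of the 20 highest, with a CV of 24.7%, whereas the other 19 ranged from 0.888% for eEF1alpha1 to 13.2% for RpL39. By CPM alone, long transcripts entered the 20 highest genes, among them Cht10, a chitinase, at 2552, 2984 and 3326 CPM, br, the Broad transcription factor, at 2802, 3121 and 2936 CPM, and pAbp, the poly(A)-binding protein, at 3183, 3180.0 and 3210.3 CPM. Only 10 genes were shared by the lists of 20 by CPM and by CPM per kb. The 10 most abundant genes together took 7.66%, 7.80% and 8.13% of the counts and the 100 most abundant 24.4%, 24.6% and 25.1%.

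**Figure D1:**
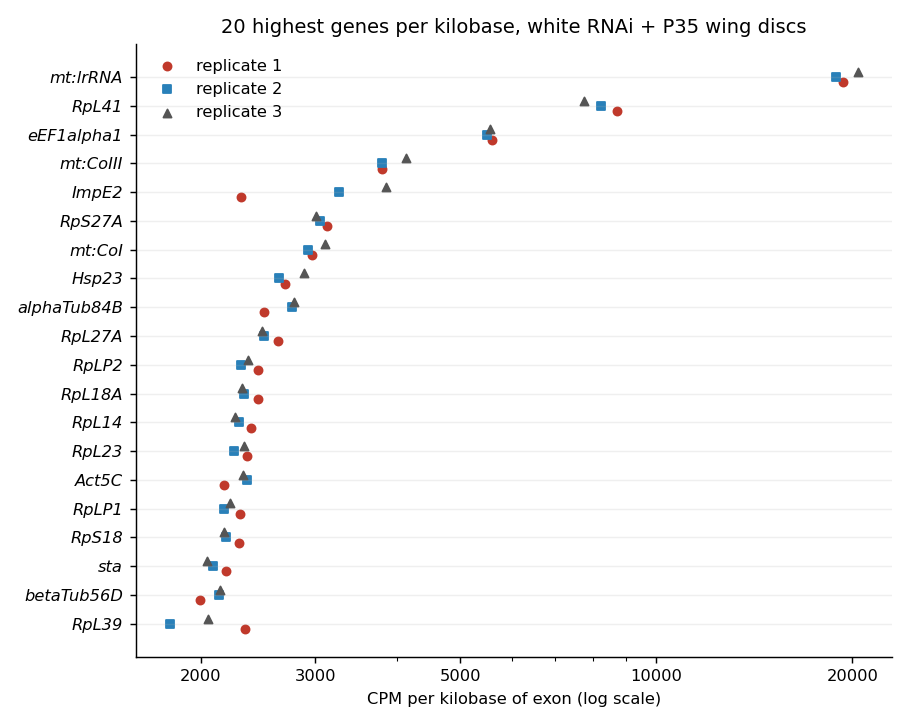
The 20 genes with the highest mean CPM per kilobase of exon, with 1 point per control library on a log axis. The 3 points of most genes nearly coincide, and ImpE2 is the widest, with replicate 1 lowest and replicate 3 highest.

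The genes that pattern the disc were expressed at moderate levels, and their spread between the libraries was close to that of all genes. Of 109 patterning genes that could be matched, 103 were detected at 1 CPM or more in all 3 libraries, and 68 lay above the median of detected genes, which was 18.6 CPM per kb. Their median CV, over the 100 genes that reached 5 CPM, was 4.00%, against 4.68% for all 6939 genes. The highest library was within 1.2-fold of the lowest for 86 of the 100 (86%), against 81.0% of all genes. The widest of them was *fj*, a Golgi kinase that modifies Fat and Dachsous, at 251, 232 and 177 CPM, a 1.42-fold range with the lowest value in replicate 3.

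Dorsal identity in the disc is set by the LIM-homeodomain protein Apterous, whose locus also carries the Gal4 driver. *ap* was read at 385, 390.5 and 404 CPM (393 ± 9.38, SD, n = 3). Its targets at the dorsal-ventral boundary were both well expressed, with *fng*, the glycosyltransferase that alters the ligand preference of Notch, at 246, 238 and 253 CPM and the Notch ligand gene *Ser* at 482, 452 and 479 CPM. For each of these 3 genes the highest library was within 1.1-fold of the lowest. Per kilobase, the order in this list ran from *fng* at 125, *ap* at 91 and *Ser* at 80.8 down to *Bx*, which encodes a LIM-only antagonist of Apterous, at 12.5 CPM per kb. *Bx* was the least even of the list, at 63.4, 58.7 and 45.4 CPM, lowest in replicate 3.

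In the posterior compartment, *en*, the selector homeodomain gene, was read at 66.6, 72 and 65 CPM and its target *hh*, the Hedgehog ligand, at 83.2, 83.1 and 81 CPM. The anterior transducer *ci* stood far higher per kilobase, at 124 CPM per kb against 24.3 for *en* and 34.8 for *hh*, and the Hedgehog receptor *ptc* lay between them and *ci* at 44.6. *kn*, a target that specifies the central intervein region, was lowest in replicate 1 and highest in replicate 3, at 51, 60.3 and 69.6 CPM. All 9 genes of the list were detected.

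The Dpp morphogen itself was read at 92.7, 89.4 and 85.6 CPM, or 17.1 CPM per kb, the lowest per-kilobase level among the detected genes of its list. Its receptor *tkv* was the highest, at 152 CPM per kb and 639, 678 and 708 CPM, followed by the heparan sulphate proteoglycan *dally* at 120.4 and the second BMP ligand *gbb* at 109 CPM per kb. The graded targets were of similar size, with *salr* at 43.2, *brk*, which Dpp represses, at 38.2, *bi* (optomotor-blind) at 28.5 and *salm* at 27.3 CPM per kb. *tsg*, an extracellular BMP modulator of the embryo, stayed under 1 CPM at 0.674, 0.277 and 0.426 CPM. It was the one undetected gene of the 15.

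The wing pouch genes were all detected. *vg*, the wing selector, was read at 267, 250.2 and 268 CPM and *sd*, its DNA-binding partner, at 614, 623 and 623 CPM. The POU-domain gene *nub* stood at 343, 336 and 364 CPM and *Dll*, a target of Wingless in the pouch, at 143, 141 and 135 CPM. These 4 genes differed between libraries by at most 1.08-fold. The atypical cadherin *ds* was the highest of the list per kilobase, at 115 CPM per kb, with *vvl* next at 98 and *pdm2*, the paralogue of *nub*, last at 17.5 CPM per kb.

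Hinge genes reached comparable levels. *zfh2* was among the steadiest genes measured, at 959, 957 and 956 CPM, and *hth* and *exd*, whose products form a nuclear heterodimer in the proximal disc, were read at 739, 768 and 770.2 CPM for *hth* and 412, 420.2 and 425 CPM for *exd*. *bowl*, a zinc-finger gene of the odd-skipped family, was the highest per kilobase at 209 CPM per kb, and its relative *odd* was the lowest at 4.06. In the notum list the Iroquois genes led, with *ara* at 48.5 and *caup* at 44.2 CPM per kb. The medial notum GATA factor *pnr* was read at 62.8, 60.1 and 62.4 CPM and the lateral gene *eyg* at 52.2, 50.3 and 46.6 CPM. The bristle prepattern homeobox genes *B-H1* and *B-H2* were low, at 4.01 and 2.17 CPM per kb.

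At the wing margin, genes of broad expression and genes of single cells differed widely in level. *emc*, an inhibitor of proneural proteins found throughout the disc, was at 270.1 CPM per kb and the receptor gene *N* at 116 CPM per kb. The proneural genes *sc* and *ac* were at 19.7 and 14.6, the sensory organ precursor gene *sens* at 3.57 and the neural precursor gene *ase* at 0.935 CPM per kb. Across libraries *sens* was read at 7.76, 9.66 and 8.86 CPM, a 1.24-fold range, and *ase* at 1.97, 2.21 and 2.64 CPM, a 1.34-fold range. Notch targets of the Enhancer of split complex ran from 106 CPM per kb for E(spl)mbeta-HLH to 3.6 for E(spl)mgamma-HLH. The Wingless ligand gene was not analysed here. In its pathway *arm*, the fly beta-catenin, was highest at 379 CPM per kb, and the feedback targets were *nkd* at 424, 405 and 496 CPM, highest in replicate 3, *fz3* at 50.6, 43 and 38 CPM, highest in replicate 1, and *Notum*, which deacylates Wnt proteins, at 37.5, 36.3 and 36 CPM.

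Vein and EGFR genes had a median CV of 5.92%, above the 4.00% of the patterning genes as a whole. Other patterning lists were similar or higher, with 5.89% for the dorsal list, 6.61% for the wing margin list and 7.42% for the Hox list. *Egfr*, the receptor, was read at 601, 598 and 599 CPM, and its ligands *spi* and *vn* at 137, 151 and 143 CPM for *spi* and 83.2, 81 and 72.4 CPM for *vn*. *rho*, the protease that releases the ligand in vein cells, was the lowest of the list at 4.2 CPM per kb and had its widest range, 1.26-fold, at 11.3, 14.3 and 12.1 CPM. Of the Hox genes *Antp*, the mesothoracic gene, was the one of any size, at 101, 99.6 and 90.2 CPM. *Ubx*, the haltere selector, which is also active in the thin peripodial layer of the disc, was read at 7.47, 6.88 and 6.26 CPM. The other 6 lay under 2 CPM, with *abd-A*, a gene of the abdomen, at 0.0642, 0.0307 and 0.19 CPM and 1 count of *pb* in all. None of the 100 patterning genes at 5 CPM or more was 2-fold apart in any single library from both others.

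**Figure D2:**
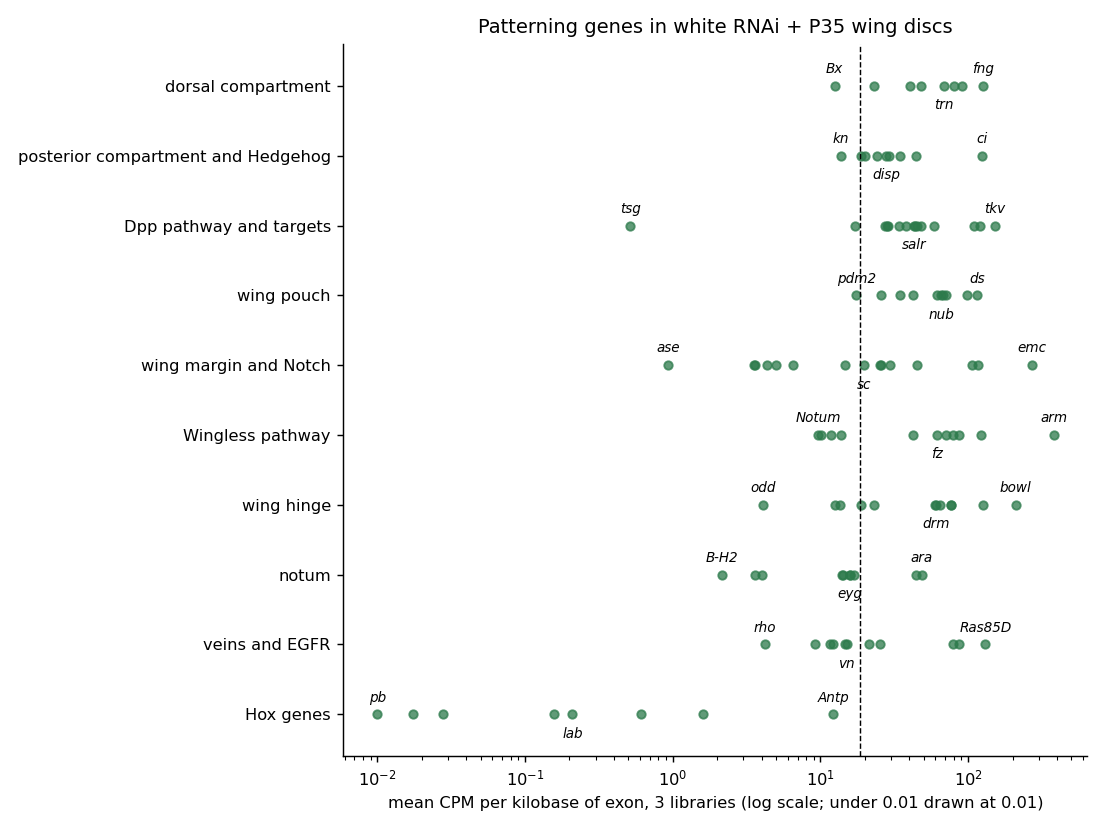
Patterning genes by list, 1 point per gene at its mean CPM per kilobase of exon over the 3 control libraries, on a log axis, with the highest, lowest and middle member of each list named. The dashed line is the median of detected genes, 18.6 CPM per kb, and the Hox genes other than Antp lie more than 10-fold below it.

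Markers of the cell types of the disc were detected. All 12 genes of the epithelium list, mostly of junctions and polarity, reached 1 CPM in all 3 libraries, against 54.8% of protein-coding genes. Their median was 96.9 CPM per kb, against 18.6 CPM per kb for all detected genes. Genes of this kind do not by themselves single out the wing disc. The E-cadherin gene *shg* was read at 890.4, 957 and 980.0 CPM and the septate junction gene *Fas3* at 959.7, 926 and 929 CPM. Muscle precursors lie beneath the notum epithelium, and all 9 genes of their list were detected, including *twi* at 38, 39.2 and 38.6 CPM, the FGF receptor *htl* at 36.4, 36.4 and 35 CPM and *Mef2* at 93.3, 90.7 and 91.2 CPM. Their summed level was 852, 887 and 929 CPM, so the share of reads from this list differed little between pools. In such bulk samples fewer cells of a type and less RNA per cell cannot be told apart. The sarcomere genes *Mhc*, at 2.64, 0.686 and 0.526 CPM, and *Mlc1*, at 0.3, 0.102 and 0.19 CPM, were low and highest in replicate 1. *Tm1*, a tropomyosin gene with non-muscle isoforms, made up most of that list at 773, 812 and 873 CPM. The actin genes *Act57B* and *Act87E* of the same list were lowest in replicate 1 and highest in replicate 3.

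Tracheal tubes that run over the disc were represented by *trh* at 81.8, 80.3 and 84.4 CPM and by the FGF receptor *btl* at 10.8, 10.8 and 10.6 CPM, both even. Most of the other genes of the list encode proteins of the apical surface and matrix that are not restricted to tubes, and 3 of them were lowest in replicate 1 and highest in replicate 3: the chitin deacetylases *verm* at 511, 601 and 726 CPM and *serp* at 171, 183 and 205 CPM, and *pio* at 685, 866 and 951 CPM. Another 3 tracheal genes had the reverse order. Haemocyte genes were low, with *Hml* at 13.8, 13.2 and 9.45 CPM and a list sum of 85.3, 96.5 and 77.2 CPM. The crystal cell gene *PPO2* was 2.51-fold apart between libraries and highest in replicate 2, at 6.52, 16.3 and 8.74 CPM. In the list of neurons and glia only 3 of the 11 matched genes were detected, and the median of the list was 0.363 CPM. *elav* was read at 55.7, 53.8 and 47.8 CPM, and the synaptic vesicle gene *Syt1*, at 6.64, 1.12 and 1.48 CPM, was at least 2-fold higher in replicate 1. The other detected gene, *moody*, was lowest in replicate 1, at 18.3, 21.4 and 22.7 CPM.

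Of the neighbouring tissues that could be carried along in dissection, the eye disc, salivary gland and gut lists were mostly at low level. The leg disc list was not, with 6 of 7 genes detected and a sum of 262, 277 and 279 CPM. In the eye list 3 of 12 genes were detected. The eye selector *ey* was read at 1.36, 0.953 and 1.21 CPM. *Lim1*, at 0.139, 0.041 and 0.0725 CPM, was the only leg gene not detected. Eye and leg genes that the wing disc is also known to express were detected, such as *eya* at 37.9, 44.2 and 48 CPM and *al* at 68.6, 74.3 and 76.9 CPM. No gut gene reached 5 CPM, and their sum was 9.65, 6.43 and 7.09 CPM. Most of that difference was in 1 gene, *LManI*, at 3.85, 1.58 and 1.47 CPM, and some others, such as *Mal-A1*, were highest in replicate 3. The salivary glue genes summed with *sage* and *fkh* to 28.6, 15.5 and 17.4 CPM, highest in replicate 1, where the glue gene *Sgs3* was at 6.37, 1.65 and 2.47 CPM. The fat body list stood apart from all others, with a sum of 3855, 94.3 and 134 CPM.

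**Figure D3:**
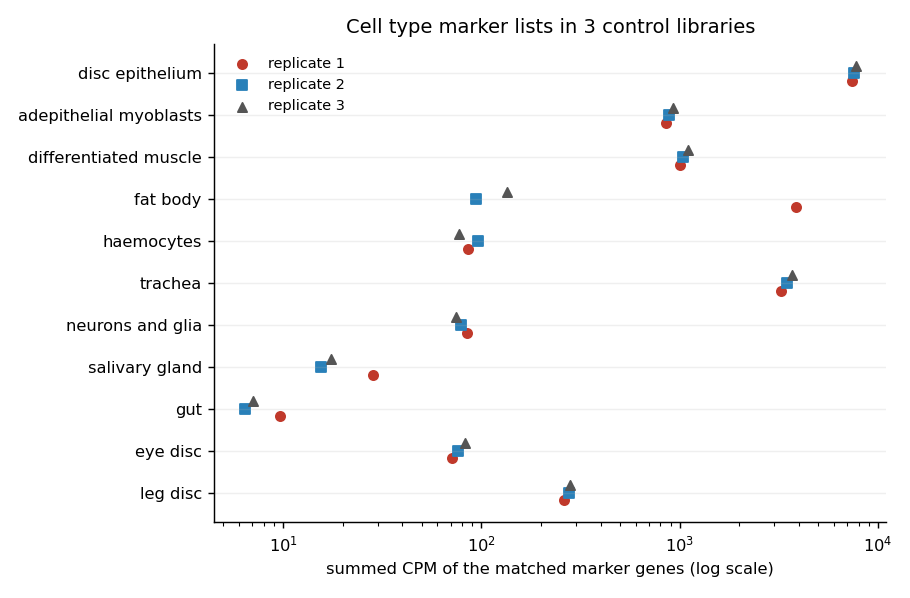
Summed CPM of each cell type marker list in the 3 control libraries, on a log axis. The libraries lie close together for most lists, except for the fat body list, which is at 3855 CPM in replicate 1 and at 94.3 and 134 CPM in the other libraries, and the low salivary gland and gut lists, which are also highest in replicate 1.

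Replicate 1 differed from the other libraries in a set of genes of the larval fat body, the organ that stores nutrients and secretes most haemolymph proteins. By the rule that a gene be at least 2-fold above each of the other libraries, 77 genes (1.11% of 6939) were higher in replicate 1, against 1 gene (0.0144%) for replicate 2 and 8 genes (0.115%) for replicate 3. Of the 12 fat body genes 8 were among the 77.

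The larval serum proteins are hexamerins stored for metamorphosis, and the 3 Lsp1 genes had the largest ratios of the 77 when 1 CPM was added to both sides. *Lsp1beta*, at chr2L:898500-901316, was read at 1502, 4.73 and 8.49 CPM, *Lsp1gamma* at 962, 3.5 and 4.38 CPM, *Lsp1alpha* at 632, 2.36 and 3.71 CPM and *Lsp2* at 61, 0.533 and 1.26 CPM. The ratio of replicate 1 to the mean of the others, with 1 CPM added to both, was 7.63, 7.61, 7.29 and 5.03 on the log2 scale. In replicates 2 and 3 all 4 were present at low level, and *Lsp2* was near 1 CPM. The fat body protein genes *Fbp1*, a hexamerin receptor induced by ecdysone, and *Fbp2* followed at 331, 7.44 and 34.2 CPM for *Fbp1* and 55.9, 2.24 and 4.71 CPM for *Fbp2*. *apolpp*, the precursor of the main lipoprotein of haemolymph, was read at 221, 2.31 and 3.97 CPM and *Lsd-1*, a perilipin of lipid droplets, at 14.1, 1.63 and 1.37 CPM. For *Fbp1* replicate 3 was also well above replicate 2.

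The other 4 genes of the list did not pass the rule. *AkhR*, the receptor for adipokinetic hormone, was also highest in replicate 1, at 1.3, 0.164 and 0.145 CPM, but lay under the minimum of 5 CPM. *Mtp*, the microsomal lipid transfer protein, and *Apoltp*, a lipid transfer particle, were level, at 66.2, 62 and 63.5 CPM for *Mtp* and 8.17, 7.36 and 8.44 CPM for *Apoltp*. *Adh* was at or near 0 in all 3. Without *Mtp* and *Apoltp* the list summed to 3780.4, 24.9 and 62.3 CPM.

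Beyond the list, genes with large ratios on the same scale were *Obp99b*, an odorant-binding protein gene, at 312, 2.68 and 5.57 CPM, *fon*, which encodes a clotting protein of haemolymph, at 50.8, 0.369 and 0.435 CPM, and the unnamed genes *CG2233* at 98, 1.59 and 2.63 CPM and *CG34166* at 89.6, 0.707 and 1.21 CPM. Chosen after their values were seen, several enzymes of metabolism were also among the 77: *Gnmt* (glycine N-methyltransferase) at 12.3, 0.0512 and 0.0181 CPM, *Tps1* (trehalose-6-phosphate synthase) at 7.72, 0.123 and 0.145 CPM, *Hn* (phenylalanine hydroxylase) at 17.6, 3.2 and 3.25 CPM and *Pepck2* (phosphoenolpyruvate carboxykinase) at 11.4, 3.07 and 3.22 CPM. *Ilp6*, an insulin-like peptide gene of the fat body, was read at 5.76, 2.49 and 2.77 CPM and *Thor*, the 4E-BP translation repressor, at 16.1, 5.42 and 3.69 CPM. *regucalcin*, at 194, 46.5 and 43 CPM, and *Tig*, a matrix ligand of integrins, at 48.9, 15.9 and 15.8 CPM, were also clearly present in replicates 2 and 3.

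The 77 genes together made up 0.526% of the counts of replicate 1 and 0.0225% and 0.0238% of those of replicates 2 and 3. Of them, 62 reached the 5 CPM minimum in replicate 1 alone, and 35 were under 1 CPM in both other libraries. *CG13315* was at 6.95, 0 and 0 CPM, with no count in replicates 2 and 3. Markers of other tissues were also among the 77, namely *Syt1*, *Sgs3* and the giant muscle protein gene *bt* at 7.17, 2.06 and 1.91 CPM. Further glue genes and *Mhc* were at least 2-fold higher in replicate 1 but under the 5 CPM minimum, with *Sgs1* at 2.48, 0.635 and 0.616 CPM and *Sgs7* at 3.92, 1.64 and 1.92 CPM. *Sgs4*, *Sgs5* and *Sgs8* were also highest in replicate 1 but not 2-fold above both others. In the muscle list the actin genes *Act57B*, at 18.3, 24.8 and 36.2 CPM, and *Act87E*, at 21.5, 28.6 and 33.5 CPM, went the other way. Only 4 of the 12 haemocyte genes reached the minimum, and none of these was among the 77. Outside that list the Nimrod family genes *NimB2*, at 8.54, 0.113 and 0.0725 CPM, and *NimC2*, at 6, 0.645 and 0.789 CPM, were among the 77. Haemocyte list genes under the minimum were mixed. *NimC1*, at 0.739, 1.09 and 0.779 CPM, and *He*, at 0.631, 1.11 and 0.87 CPM, were lowest in replicate 1. *srp*, at 4.73, 2.66 and 1.92 CPM, and *atilla*, at 1.67, 1.38 and 0.671 CPM, were highest there. Whether carried-over tissue had a part in these differences was not tested.

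**Figure D4:**
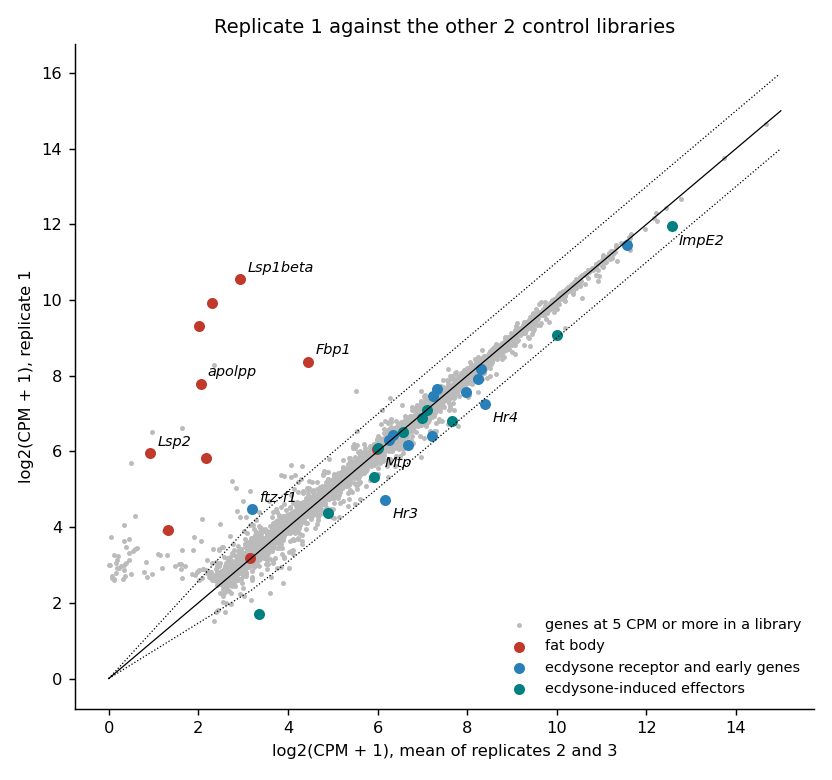
Replicate 1 against the mean of replicates 2 and 3, as log2(CPM + 1), 1 point per gene that reached 5 CPM in a library, with the solid line for equal levels and dotted lines for 2-fold differences. Fat body genes such as Lsp1beta lie far above the diagonal, Mtp lies on it, and the nuclear receptor genes Hr3 and Hr4 lie below the lower dotted line. Fbp1 belongs to both the fat body and the effector list and is drawn with the fat body.

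In the opposite direction only 2 genes (0.0288%) were at least 2-fold lower in replicate 1 than in each other library, and both encode nuclear receptors of the ecdysone cascade. *Hr3*, an early-late receptor that represses early genes and activates *ftz-f1* in prepupae, was read at 25.5, 53.2 and 89.4 CPM. *Hr4*, which is needed at the onset of metamorphosis, was read at 153, 318 and 357 CPM. In both genes replicate 3 was the highest.

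This order, lowest in replicate 1 and highest in replicate 3, recurred among the genes of the ecdysone response. Replicates carry no order of their own, and the pattern was picked out after the values were seen. Over all genes, 103 (1.48%) were lowest in replicate 1 and highest in replicate 3 with the extremes at least 1.5-fold apart, and 156 (2.25%) were the reverse, which became 129 and 129 with DESeq2 size factors. Among the 29 ecdysone and temporal genes at 5 CPM or more, 10 had the first order and 2 the reverse. The median ratio of replicate 3 to replicate 1, with 1 CPM added, was 1.61-fold for the 11 effectors, 1.13-fold for the 13 receptor and early genes and 0.963-fold for all genes. The effectors include *Fbp1*, which is also in the fat body list and was highest in replicate 1.

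The effector list is mixed. It holds the Imp genes, of the class found as ecdysone-inducible in discs, beside other ecdysone-induced genes such as *Fbp1*. *ImpE2* was read at 3938, 5561 and 6564 CPM, *ImpE1*, which encodes a protein with lipoprotein receptor repeats, at 539, 874 and 1163 CPM and *ImpE3* at 110.3, 173 and 229 CPM. *ImpL1* was low, at 2.26, 4.31 and 14.2 CPM, but had the largest ratio of replicate 3 to replicate 1 in the list, 6.3-fold. *Sb*, the transmembrane protease Stubble that is needed for disc eversion, was read at 39.4, 52.1 and 67 CPM, and *Ldh*, lactate dehydrogenase, at 19.7, 24.9 and 32.3 CPM. In these 6 genes replicate 2 lay between the others. Effectors that were level included *Eip63E*, a cyclin-dependent kinase gene, at 135, 136 and 139 CPM, *Cth*, cystathionine gamma-lyase, at 90.7, 96.5 and 89.9 CPM and *MsrA*, methionine sulfoxide reductase, at 67.4, 64.3 and 62.3 CPM. *ImpL2*, which binds insulin-like peptides, was slightly higher in replicate 3, at 117, 120.0 and 134 CPM. The cuticle gene *Edg84A* had no count, and *Edg78E* and *Edg91* were near 1 CPM, at 0.524, 1.19 and 1.45 CPM for *Edg78E* and 1.26, 1.09 and 0.689 CPM for *Edg91*.

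Among the transcription factors, *Blimp-1*, an ecdysone-induced repressor of *ftz-f1*, was read at 84.7, 145 and 152 CPM and *Eip78C*, another early-late receptor gene, at 70.6, 94.8 and 109 CPM, both lowest in replicate 1. *Hr39*, at 241, 282 and 324 CPM, and *Oatp74D*, the importer that carries ecdysone into cells, at 191, 233 and 264 CPM, had the same order with ranges under 1.5-fold. The receptor gene *EcR* had the reverse order, at 198, 171 and 150.2 CPM, and so did the early ETS gene *Eip74EF*, at 174, 157 and 141 CPM. *usp*, which encodes the partner of EcR, was level at 77.6, 76.1 and 73.9 CPM, and the early gene *Eip75B* was nearly so at 286, 312 and 325 CPM. *br*, the highest gene of the list per kilobase at 146 CPM per kb, was highest in replicate 2, at 2802, 3121 and 2936 CPM (2953 ± 160.1, SD, n = 3).

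*ftz-f1*, the competence factor of the mid-prepupa, was highest in replicate 1 and lowest in replicate 3, at 21.3, 11.3 and 4.99 CPM, a 4.27-fold range. *Eip93F*, the pupal-to-adult specifier, was near 2 CPM throughout, at 1.66, 2.31 and 2.25 CPM, and *Cyp18a1*, which inactivates ecdysone, was at 2.64, 3.64 and 3.44 CPM. *chinmo*, which maintains the larval state of disc cells and is replaced by *br*, was read at 40.4, 23.4 and 10.2 CPM, 3.98-fold higher in replicate 1 than in replicate 3. *mamo*, another zinc-finger gene of temporal identity, differed less, at 74.2, 89.4 and 83.5 CPM. The RNA-binding protein pair of temporal patterning, *Imp* and *Syp*, stood at 205, 203 and 185 CPM for *Imp* and 2156, 2337 and 2333 CPM for *Syp*, and per kilobase *Syp* was at 203 against 14.5 for *Imp*.

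**Figure D5:**
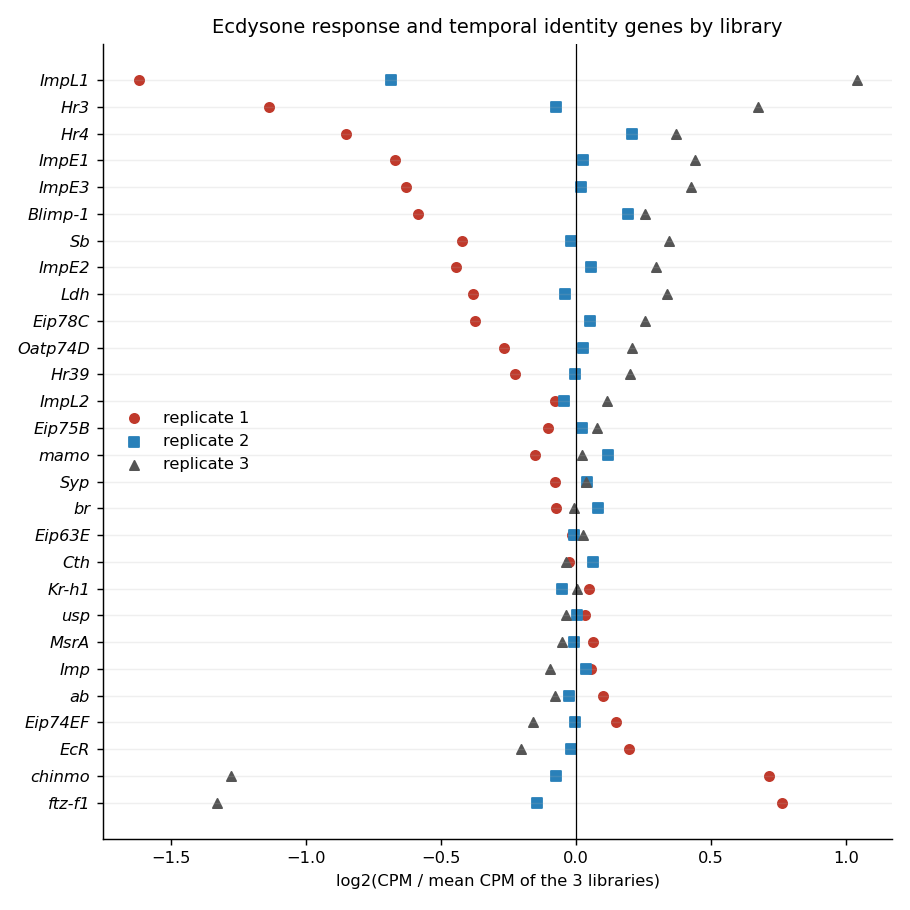
Ecdysone response and temporal identity genes that reached 5 CPM in a library, each library drawn as log2 of its CPM over the mean of the 3. From ImpL1 to Hr39 replicate 1 is lowest and replicate 3 highest, br, usp and Eip63E are level, and chinmo and ftz-f1 have the reverse order.

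Further genes with the order of the effectors, picked out after their values were seen, included several secreted or matrix proteins. *tnc*, the mucin-like matrix protein Tenectin, was read at 609, 931 and 1379.5 CPM, *Ppn*, the basement membrane protein Papilin, at 1069.8, 1390.1 and 1620.2 CPM and *wb*, a laminin alpha chain, at 116, 152 and 177 CPM. The matrix metalloproteinase genes *Mmp1* and *Mmp2* were read at 136, 174 and 242 CPM for *Mmp1* and 92.3, 129.7 and 156 CPM for *Mmp2*, and the integrin gene *scb* at 92.4, 126 and 176 CPM. All 6 were lowest in replicate 1 and highest in replicate 3. The chitinase gene *Cht5* was read at 67, 86.8 and 103 CPM. *Cpr49Ac*, one of the cuticle protein genes, of which 2 had this order at 1.5-fold and 3 the reverse, was at 439, 644 and 704 CPM. *E23*, an ecdysone-inducible ABC transporter gene, was low at 18.3, 27.8 and 40.6 CPM. The 8 genes at least 2-fold higher in replicate 3 included *ImpL1*, the zona pellucida protein gene *m* at 6.63, 9.82 and 20.5 CPM, *Ets21C*, a transcription factor gene of stress signalling, at 3.25, 5.23 and 10.8 CPM, *ple*, tyrosine hydroxylase, at 1.86, 2.71 and 5.44 CPM, and *flz* at 2.49, 2.38 and 6.52 CPM.

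Also picked out after their values were seen, the collagen IV genes *Col4a1* and *vkg*, products of fat body and haemocytes that are laid down in the basement membrane of discs, were read at 136, 86.5 and 49 CPM for *Col4a1* and 91.8, 57.7 and 33.9 CPM for *vkg*, the reverse order. In both genes replicate 2 lay between the others, whereas the larval serum protein genes were low in both replicates 2 and 3. Of the 156 genes with this order, 32 (20.5%) were also among the 77 genes higher in replicate 1, which is 41.6% of those 77. A gene 2-fold higher in replicate 1 has this order whenever replicate 3 is below replicate 2, so the overlap is set by the rules. Of the 77, 44 were higher in replicate 3 than in replicate 2.

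By the 2-fold rule 16 genes (0.231%) were counted as lower in replicate 3, of which 15 were lower than in each other library and the remaining one, *CG13315*, had no count in replicates 2 and 3. *fru*, a BTB zinc-finger gene of sexual differentiation, was read at 169, 104 and 48.1 CPM, *chinmo* and *ftz-f1* were named above, and the cuticle genes *Cpr64Aa* and *Cpr49Ah* were at 40.6, 19.1 and 7.69 CPM for *Cpr64Aa* and 24.6, 14.7 and 7.31 CPM for *Cpr49Ah*. *Idgf6*, a chitinase-like growth factor gene, was read at 36.4, 7.93 and 3.61 CPM, *Aldh*, aldehyde dehydrogenase, at 24.7, 10.5 and 3.49 CPM and *Miox*, inositol oxygenase, at 10.2, 0.502 and 0.127 CPM. *Cyp310a1*, a cytochrome P450 gene, was at 47.7, 27.8 and 9.73 CPM, and in all of these genes replicate 2 lay between the others. Of these, *Idgf6*, *Aldh*, *Miox* and *Cpr64Aa* were also among the 77 genes higher in replicate 1. *fru*, *chinmo*, *ftz-f1*, *Cpr49Ah* and *Cyp310a1* were not. For replicate 2 the rule counted 13 genes (0.187%), *CG13315* among them, and 12 were lower than in both others. Of the 13, 11 were among the 77, and the other 2 were the inducible heat shock genes *Hsp68* at 290.4, 124 and 255 CPM and *Hsp70Bc* at 40.3, 17.1 and 36.2 CPM. The remaining Hsp70 copies, whose near-identical sequences share reads, were also lowest in replicate 2, with *Hsp70Ba* at 43.3, 22.1 and 33.6 CPM and *Hsp70Aa* at 18.8, 8.69 and 17 CPM, while *Hsp23* and *Hsp83* were level at 2379.7, 2327 and 2547 CPM for *Hsp23* and 3252, 3055 and 3164 CPM for *Hsp83*.

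Cell cycle genes ran the same way as *chinmo*, by small amounts. Of 19 genes, 18 were highest in replicate 1 and lowest in replicate 3, against 2621 of 6939 genes (37.8%) with that order at any size, and 1218 (17.6%) with the reverse. None reached a 1.5-fold range. *stg*, the Cdc25 phosphatase that starts mitosis, was read at 177, 137 and 124 CPM, the DNA polymerase clamp *PCNA* at 226, 197 and 179 CPM, the replicative helicase subunit *Mcm5* at 140.4, 121 and 102 CPM and *CycB*, the mitotic cyclin, at 398, 379 and 344 CPM. *CycD*, the G1 cyclin, was the exception at 89.3, 92.9 and 92.3 CPM. With library sizes scaled by TMM the count was 16 of 19, against 25.3% of all genes with that order and 27.8% with the reverse. Ribosomal protein genes were highest in replicate 1 for 79 of 83 genes, against 48.9% of all genes, which became 63 of 83 against 36.9% with TMM. Their median ratio of replicate 3 to 1 was 0.948, near the 0.963 of all genes, and 0.985 with TMM.

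Apoptosis genes, of interest because P35 was present, differed by at most 1.31-fold between libraries where they reached 5 CPM. The caspase inhibitor *Diap1* was read at 872, 905 and 927 CPM, its antagonists *hid* and *rpr* at 250.1, 242 and 260.1 CPM for *hid* and 29.3, 26.5 and 28.7 CPM for *rpr* and the effector caspase *Drice* at 109, 116 and 115 CPM. *Dronc*, the initiator caspase, was the least even of the 8 at 5 CPM or more, at 90.4, 112 and 118 CPM, and *skl*, another inhibitor-of-apoptosis antagonist, was low at 0.599, 0.195 and 0.644 CPM. *grim* had no count in any library, but it overlaps other genes on both strands and reads shared by genes may not have been assigned.

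Some dosage compensation genes differed between pools. *roX1*, a non-coding RNA of the male X chromosome complex, was read at 349, 315 and 559 CPM, its partner *roX2* at 15.1, 10.9 and 20.4 CPM and *msl-2*, the male-limiting protein of the complex, at 51.7, 50.8 and 66.5 CPM, all 3 highest in replicate 3 and lowest in replicate 2. *Sxl*, which blocks the complex in females, was level at 369.9, 374 and 356 CPM. A part of the sex makeup of the pools in other differences was not tested.

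Between pairs of libraries, Pearson r of log2(CPM + 1) across the 6939 genes was 0.982 for replicates 1 and 2, 0.980 for 1 and 3 and 0.997 for 2 and 3, as a description over genes that are not independent. The pairs had 88, 142 and 37 genes at least 2-fold apart. The chi-square per degree of freedom between the counts of each pair was 71.7, 118 and 24.9, so no library was treated as a repeat of another. The biological coefficient of variation, edgeR's estimate of spread beyond counting error, was 0.179 for the 3 libraries, and 0.0713 without replicate 1, 0.203 without replicate 2 and 0.184 without replicate 3.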

How the data were processed

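The counts were deposited by the authors as 1 whole-number table for 6 libraries; 3 columns were used here and 0 columns of per-sample values were left unmapped. According to the methods, reads were aligned to BDGP6 with Rsubread and assigned to genes with featureCounts; the submitters' processing notes also name FastQC, edgeR (3.13.4) and limma. Libraries were directional but the deposited counts are unstranded, so reads of genes that overlap on opposite strands cannot be told apart; 35.8% of detected genes overlap such a gene. A second table of the authors' own comparison was used only for gene names, an entry of another kind with no measurement.

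CPM is the count over the library total. Exon lengths, symbols and coordinates came from the Ensembl release 115 annotation matched by gene ID, which named 17253 genes; 120 more were named from the authors' table and 186 (0.841 to 0.854% of counts) have none. Lengths may differ from those the authors counted on. Values are mean ± SD of 3 libraries; no test was run, since the libraries form 1 group. A replicate was compared with the other libraries by a minimum of 5 CPM in a library and a 2-fold difference from each; log2 ratios have 1 CPM added. The script for this rule was tested on simulated data with the spread found without replicate 1, 0.0713, against 0.179 for the 3 libraries. The planted changes were larger than 2-fold and in genes above the minimum. Changes close to 2-fold and changed genes near the minimum were not covered. Named genes were *w*, the 20 highest by CPM and per kilobase, the genes with the largest replicate ratios and members of the lists. The members and lists were chosen with earlier results of these data known. 5 list names were not analysed here. Alternatives were other scaling, minimum CPM, fold and leaving out each library, run with R 4.3.3, edgeR 4.0.16, DESeq2 1.42.0 (size factors only) and Python 3.11.15. Depth was 93428696 to 110330112 counts, and the floors cover counting error only.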

Additional observations from a re-analysis of the deposited data

How the results depend on the processing

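Scaling by TMM or by DESeq2 size factors kept all 994 levels of named genes within 1 SD and moved the median log2 ratio of replicate 1 to the others from 0.03 to 0.00 and -0.01. Both scalings were set to the average size of the libraries, so a mean over 3 libraries could hardly move by the SD of its own gene. The 994 levels are therefore no test of the scaling. The numbers of genes 2-fold apart in 1 library depend on the minimum level and on the fold. With no minimum they were 1150 higher and 1237 lower in replicate 1, 588 and 1475 in replicate 2, and 645 and 1350 in replicate 3, since genes of a few counts then enter, and without genes at 0 in more than 1 library, left out after the data were seen, the lower counts were 506, 683 and 615. With a minimum of 20 CPM they were 19 higher in replicate 1, 0 higher and 6 lower in replicate 2, and 1 higher and 10 lower in replicate 3. At 1.5-fold they were 120 and 29, 2 and 30, and 24 and 40. At 4-fold 58 genes were still higher in replicate 1, against 0 lower, 0 higher and 6 lower in replicate 2, and 0 higher and 2 lower in replicate 3. The order of the libraries, an alternative chosen after the data were seen, held at 2-fold for 31 genes with replicate 1 lowest and 64 with replicate 1 highest, and with TMM for 123 and 131 at 1.5-fold. Without the mitochondrial genome and ribosomal RNA genes the 10 highest genes took 5.66% of counts and the 100 highest 22.6%. The biological coefficient of variation ranged from 0.0713 to 0.203 when 1 library was left out, and was lowest without replicate 1. The promoter motif description was not run, as no promoter sequences were used here. No paired analysis was possible because the 3 libraries form 1 group and no test was made.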
